A study of Mus musculus with 20 samples.

Results

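The 27 genes described here make, load, release, sense and clear γ-aminobutyric acid (GABA) in the mouse brain. They were chosen by name and not by a measured value, though with earlier results of these data known. The set held 16 subunits of the ionotropic GABA-A receptor (the alpha, beta, gamma, delta, epsilon, pi, theta and rho types). Both subunits of the metabotropic GABA-B receptor were included. The others were 4 genes of GABA synthesis, vesicle loading and breakdown, 2 GABA uptake transporters and 3 genes of the inhibitory postsynapse. All 27 had a probe on the array, out of 20972 genes with a probe, and 22 of them were among the 15102 genes bright enough to be tested. GABA is the main inhibitory transmitter of the brain. It is made from glutamate by glutamate decarboxylase, packed into vesicles by the vesicular inhibitory amino acid transporter, and taken up again by plasma membrane transporters of neurons and astrocytes. GABA-A receptors are pentameric chloride channels whose subunits set location and kinetics, and GABA-B receptors are obligate heterodimers that signal through G proteins. The principal cells of the striatum, the medium spiny neurons, themselves release GABA.

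The arrays compared 4 groups of 5 male mice on a C57BL/6J background, in which a Tet-on binding protein was driven by the astrocyte promoter GFAP. Tat+ mice also carried the TRE-Tat86 transgene for the HIV-1 protein Tat, Tat− mice lacked it, and all mice, controls included, received doxycycline at 100 mg/kg daily for 7 days together with methamphetamine (Meth) at 2 mg/kg or saline (Sal) for 7 days. The groups are called Tat−/Meth, Tat−/Sal, and, with the transgene, Tat+/Meth and Tat+/Sal. The labels give the left hemisphere 24 h after the last injection at 6 to 7 weeks of age. The methods instead give caudate putamen 1 h after a challenge with 1 mg/kg Meth that followed 7 days of abstinence, at 3 to 5 months. By the methods all mice received this challenge, both saline groups included. Sal would then mean no Meth before the challenge, and the Meth comparisons would be of earlier repeated Meth. All 9 medium spiny neuron markers examined were well above background on at least 3 arrays of every group. By the same count 5 of 6 thalamus markers and 3 to 5 of 6 cortical projection neuron markers were too. Detection of these markers therefore does not tell the tissue of the labels from that of the methods.

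One feature of the arrays touches every result below. All 5 Tat−/Meth arrays lay on slide 1, which held no other group, so Tat−/Meth and slide 1 cannot be told apart. Slide 2 held the 5 Tat−/Sal and 3 Tat+/Meth arrays, and slide 3 held 2 Tat+/Meth and the 5 Tat+/Sal arrays. The bright corner control spots, which carry no mouse RNA, read 14.66 to 15.06 log2 units on slide 1 and 16.80 to 17.42 on slides 2 and 3. On array 5 of Tat−/Meth, 70.9% of probes were well above background, against 56.5 to 60.3% in the 4 others of its group. Without it 9 members rather than 10 passed against Tat−/Sal, and the counts of the other comparisons stayed the same. In the interaction of Tat and Meth, however, *Nlgn2* was lost and *Slc6a11* passed instead.

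Levels are log2 intensities after each array was shifted to a common 75th percentile, and differences are log2 fold changes ± SE from a limma fit of all 4 groups. Meth without Tat stands for Tat−/Meth vs. Tat−/Sal, and Tat under Meth for Tat+/Meth vs. Tat−/Meth. Meth with Tat stands for Tat+/Meth vs. Tat+/Sal, and Tat under saline for Tat+/Sal vs. Tat−/Sal. A member is said to have passed, risen or fallen at a Benjamini–Hochberg adjusted *p* under 0.05 over all genes tested. For Meth without Tat, 10 of 22 members passed (45.5%), 6 higher and 4 lower, against a background of 50.2% of all genes tested (35% higher, 15.3% lower). The share of GABA genes that passed was therefore near that of genes at large. *Gabrr1* alone changed by more than 2-fold, a size that 6.85% of all genes reached. For Tat under Meth, 13 of 22 members passed (59.1%), 5 higher and 8 lower, against a background of 54.4% (16% higher, 38.5% lower), and *Gabrr1* was again the member above 2-fold (background 7.22%). No member passed for Meth with Tat, nor did any other gene tested (background 0%). No member passed for Tat under saline either (background 1.42%), nor between Tat+/Meth and Tat−/Sal (background 0%). The comparisons with calls, Meth without Tat and Tat under Meth, share the Tat−/Meth arrays, so opposite signs of a gene in them are not separate evidence.

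The sign of small changes depended on the scaling. For Meth without Tat the median change of all genes tested was 0.14 after 75th percentile scaling, 0.26 after median scaling and −0.29 without scaling, and for Tat under Meth it was −0.15, −0.31 and 0.19. The median of the 22 members was 0.05 and −0.09 after 75th percentile scaling. Without scaling 12 members passed for Meth without Tat, 0 higher and 12 lower, and 9 for Tat under Meth, 9 higher and 0 lower. All genes leaned the same ways. Of 15121 tested without scaling, 7259 passed for Meth without Tat, 125 higher and 7134 lower. For Tat under Meth 5617 passed, 5293 higher and 324 lower. Of the 12 members, 4 had also passed after 75th percentile scaling (*Gabra4*, *Gabrg3*, *Gabrr1* and *Nlgn2*). The others were *Abat*, *Gabbr1*, *Gabrb1*, *Gabrb2*, *Gabrd*, *Gabrr2*, *Gad2* and *Slc6a13*. Of the 9 members, 5 had also passed there (*Gabra4*, *Gabrb1*, *Gabrg3*, *Gabrr1* and *Nlgn2*), while *Abat*, *Gabrd*, *Gabrr2* and *Gad2* had not. Below, passing refers to 75th percentile scaling unless another setting is named. After median scaling 5 of the 10 calls for Meth without Tat were lost (*Gabrg3*, *Gad1*, *Slc32a1*, *Nlgn2* and *Gabarap*), as were 6 of the 13 for Tat under Meth (*Gabra4*, *Gabrb1*, *Gabrg3*, *Slc32a1*, *Slc6a11* and *Nlgn2*). Among all genes, median scaling left 4249 and 5935 of 15121, where 75th percentile scaling gave 7588 and 8220 of 15102. After the median of all genes was taken off, 9 of the 10 members that passed for Meth without Tat and 12 of the 13 for Tat under Meth kept their sign under each of 6 scalings and background corrections, the exception in both being *Slc32a1*. The 3 settings that shift a whole array (75th percentile, median and no scaling) give nearly the same value by construction once that median is off, so the other 3 settings alone (quantile normalization, normexp and the series matrix values) could have changed a sign.

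**Figure D1:**
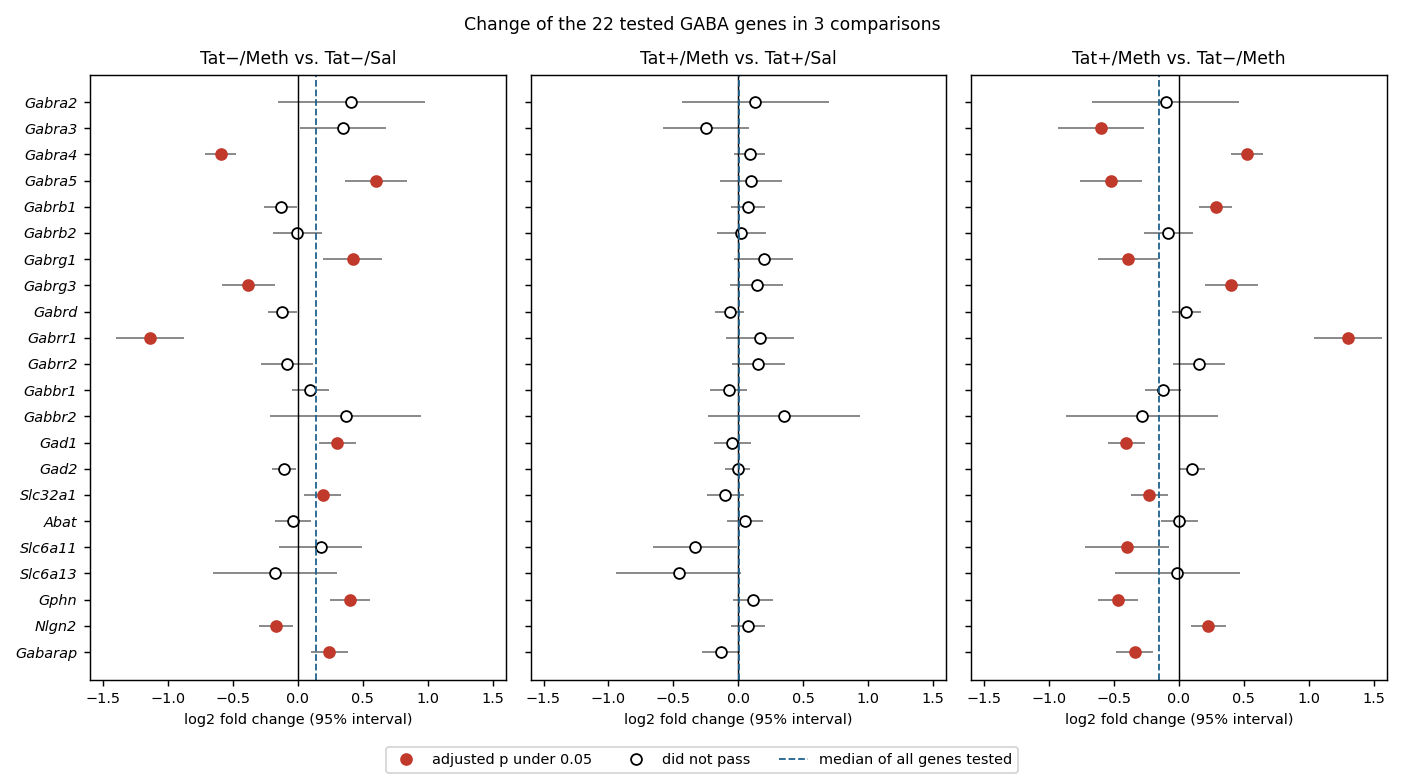
Log2 fold changes (x axis, with 95% intervals) of the 22 tested GABA genes (y axis, ordered by role) for Meth without Tat (left), Meth with Tat (middle) and Tat under Meth (right). Filled points passed, open points did not, and the dashed line is the median of all genes tested. Filled points appear in both comparisons that include Tat−/Meth (10 and 13 genes) and none in the middle panel.

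Among the alpha subunits, which shape the GABA binding pocket and sort receptors to synaptic or extrasynaptic sites, *Gabra4* fell and *Gabra5* rose in Tat−/Meth. *Gabra4* encodes a subunit that pairs with delta in extrasynaptic receptors. It read 12.74, 12.68, 12.69, 12.71 and 12.78 on the 5 Tat−/Meth arrays and 13.36, 13.35, 13.31, 13.20 and 13.34 on the 5 Tat−/Sal arrays. In Tat+/Meth it read 13.27, 13.30, 13.29, 13.08 and 13.27, and in Tat+/Sal 13.14, 13.33, 13.19, 13.04 and 13.09. Every Tat−/Meth array lay below every array of the other 3 groups. The change was −0.59 ± 0.06 for Meth without Tat (adjusted *p* = 1.47e-07) and 0.52 ± 0.06 for Tat under Meth (adjusted *p* = 6.33e-07). With median scaling the latter was 0.37 and did not pass (adjusted *p* = 0.077). In bulk tissue fewer cells of a type and less RNA per cell cannot be told apart, here and below.

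*Gabra5*, the subunit of tonic receptors best known from hippocampus, read 9.90, 9.69, 9.46, 9.60 and 9.59 in Tat−/Meth and 9.13, 8.97, 8.93, 9.35 and 8.87 in Tat−/Sal. The lowest Tat−/Meth array lay above the highest Tat−/Sal array, with a change of 0.60 ± 0.11 (adjusted *p* = 0.00027). In Tat+/Meth all 5 arrays lay between 9.09 and 9.20, and the change against Tat−/Meth was −0.52 ± 0.11 (adjusted *p* = 0.00083). Without scaling the *Gabra5* change for Meth without Tat was 0.18, which did not pass. *Gabra3*, a subunit of synaptic receptors, fell by 0.60 for Tat under Meth (SE 0.16, adjusted *p* = 0.0035), from a mean of 12.05 ± 0.22 in Tat−/Meth to 11.45 ± 0.28 in Tat+/Meth (SD, n = 5), with no overlap. Its value of 0.35 for Meth without Tat had an adjusted *p* of 0.073 and overlapping groups. A second, dimmer *Gabra3* probe did not reach the signal limit for testing, and with the mean over both probes the change for Tat under Meth was −0.11 (adjusted *p* = 0.67). *Gabra2*, the alpha subunit abundant in striatum, varied most among the tested GABA-A genes within Tat−/Meth (12.10 ± 0.66, SD, n = 5), and its change of 0.41 ± 0.27 did not pass (95% interval −0.15 to 0.98).

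The beta subunits complete the GABA binding site. *Gabrb1* had means of 11.99 ± 0.08 in Tat−/Meth and 12.12 ± 0.10 in Tat−/Sal mice (SD, n = 5). In the Tat+ mice the means were 12.27 ± 0.05 with Meth and 12.20 ± 0.11 with saline. All 5 Tat+/Meth arrays (12.22 to 12.33) lay above all 5 Tat−/Meth arrays (11.92 to 12.08), a rise of 0.28 ± 0.06 (adjusted *p* = 0.00073), whereas −0.13 ± 0.06 for Meth without Tat did not pass. After median scaling the rise was 0.12 with an adjusted *p* of 0.57. *Gabrb2* had changes between −0.11 and 0.03 in all 6 contrasts, and none passed. Its 95% interval for Meth without Tat was −0.19 to 0.19.

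The gamma subunits, which carry synaptic clustering and benzodiazepine sensitivity, moved apart. *Gabrg3* fell in Tat−/Meth, reading 8.08, 8.07, 8.26, 8.39 and 8.44 against 8.48, 8.48, 8.70, 8.62 and 8.87 in Tat−/Sal. The groups did not overlap, though their nearest arrays were 0.04 apart, and the change was −0.38 ± 0.10 (adjusted *p* = 0.0033). *Gabrg1* rose instead, from 10.96 to 11.28 in Tat−/Sal to 11.24 to 11.82 in Tat−/Meth, with 4 of 5 arrays above every Tat−/Sal array. That change was 0.42 ± 0.11 (adjusted *p* = 0.0036), and near 0 without scaling. The second probe of *Gabrg1* read 0.80 ± 0.14 and that of *Gabrg3* −0.21 ± 0.18 (adjusted *p* = 0.32, every probe fitted). *Gabrg3* rose by 0.40 ± 0.10 for Tat under Meth (adjusted *p* = 0.0020) and *Gabrg1* fell by 0.39 (SE 0.11, adjusted *p* = 0.0053). This *Gabrg3* call was lost with median scaling (0.24, adjusted *p* = 0.23) and with the second probe (0.32, adjusted *p* = 0.13), and that for Meth without Tat was lost with median scaling too (−0.26, adjusted *p* = 0.22). *Gabrd*, the delta subunit of tonic receptors and usual partner of *Gabra4*, stayed within 14.93 to 15.23 on all 20 arrays. Its change for Meth without Tat, −0.12 ± 0.05, had an adjusted *p* of 0.073.

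The rho subunits form receptors insensitive to bicuculline and are best known from retina. *Gabrr1* gave the largest change of any tested member. It read 7.94, 8.23, 7.99, 8.14 and 8.40 in Tat−/Meth, and 8.87, 9.03, 9.32, 9.54 and 9.66 in Tat−/Sal. The Tat+/Meth arrays read 9.40, 9.39, 9.57, 9.30 and 9.55, and the Tat+/Sal arrays 9.21, 9.25, 9.40, 9.36 and 9.15. Tat−/Meth was again the low group, with no overlap with any other. The change was −1.14 ± 0.12 for Meth without Tat, a 2.21-fold lower level (adjusted *p* = 6.82e-07), and 1.30 ± 0.12 for Tat under Meth, 2.46-fold higher (adjusted *p* = 1.17e-07). Within Tat+/Meth the 3 arrays of slide 2 (9.39 to 9.57) and the 2 of slide 3 (9.30 to 9.55) overlapped. *Gabrr2*, an adjacent protein-coding gene on the chromosome, did not pass. Its values were −0.08 ± 0.10 for Meth without Tat (95% interval −0.29 to 0.12) and 0.15 ± 0.10 for Tat under Meth. The 250 bases before the start of both genes are shown because these neighbours gave unlike values. The sequences are from RefSeq (GRCm38.p6, both on the + strand), at chr4:33132306-33132555 for *Gabrr1* and chr4:33062862-33063111 for *Gabrr2*. Capitals mark letters of a TATA box (TATAAA), a CREB half-site (TGACG), an AP-1 site (TGANTCA) or a GC box (GGGCGG), searched on both strands, and no 2 marked stretches overlap.
Gabrr1: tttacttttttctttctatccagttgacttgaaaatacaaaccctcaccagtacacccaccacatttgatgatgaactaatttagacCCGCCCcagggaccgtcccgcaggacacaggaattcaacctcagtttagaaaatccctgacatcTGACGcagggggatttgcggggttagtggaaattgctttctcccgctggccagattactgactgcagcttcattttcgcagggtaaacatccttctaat
Gabrr2: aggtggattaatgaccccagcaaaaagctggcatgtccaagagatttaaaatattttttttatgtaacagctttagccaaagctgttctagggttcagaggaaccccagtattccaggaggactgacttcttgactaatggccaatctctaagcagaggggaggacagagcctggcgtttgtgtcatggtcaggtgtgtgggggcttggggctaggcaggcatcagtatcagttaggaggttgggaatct
The *Gabrr1* window held 1 GC box match and 1 CREB half-site match, and the *Gabrr2* window held no match to any of the 4. Of all 32851 promoter windows of this length, 32.7% held the GC box, 17.8% the CREB half-site, 12.4% the TATA box and 6.75% the AP-1 site. These matches are descriptions of the letters only.

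The third rho gene, *Gabrr3*, did not reach the signal limit. It read 2.35, 2.96, 3.74, 3.33 and 3.70 in Tat−/Meth, not well above background on any of the 5 arrays, and 5.48, 5.62, 5.62, 4.52 and 5.93 in Tat−/Sal, where 4 of 5 were. The groups did not overlap, and the fit without a signal filter gave an adjusted *p* of 0.00017. That fit used the same Tat−/Meth readings, which were not measured above background. No size is therefore given, and the adjusted *p* is not read as that of a measured difference. In each Tat+ group 2 of 5 arrays measured it well above background.

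Neither GABA-B gene passed by its standing probe after percentile scaling in the fit of all groups. *Gabbr1*, the ligand-binding subunit, stayed within 15.28 to 15.65 on all arrays, with 0.09 ± 0.07 for Meth without Tat (95% interval −0.05 to 0.24). For that comparison *Gabbr1* passed as higher with quantile normalization and as lower without scaling, so its sign depended on the scaling. For Tat under Meth it passed as lower with quantile normalization, after normexp and by the methods' t-test. It passed in neither comparison with median scaling or the series matrix values. *Gabbr2*, the subunit that couples to G proteins, read 8.82, 8.73, 8.72, 8.65 and 9.02 in Tat−/Meth and 8.40, 8.27, 8.50, 8.50 and 8.44 in Tat−/Sal. These groups did not overlap, yet the change of 0.37 ± 0.28 did not pass in the fit of all groups, where *Gabbr2* in Tat+/Sal ranged from 6.96 to 9.33. With only the Tat−/Meth and Tat−/Sal arrays in the fit it passed. Its 3 probes disagreed. The second read 0.27 ± 0.12 (adjusted *p* = 0.070 with every probe fitted), whereas the third read −1.80 ± 0.39 (adjusted *p* = 0.00086) and was detected above background on 3 of the 5 Tat−/Meth arrays, and on all 15 others. The third *Gabbr2* probe read 1.89 ± 0.39 for Tat under Meth. No single direction can therefore be given for *Gabbr2*. Of the 3 *Gabbr1* probes, 1 passed for Tat under Meth (−0.42 ± 0.15, adjusted *p* = 0.029).

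**Figure D2:**
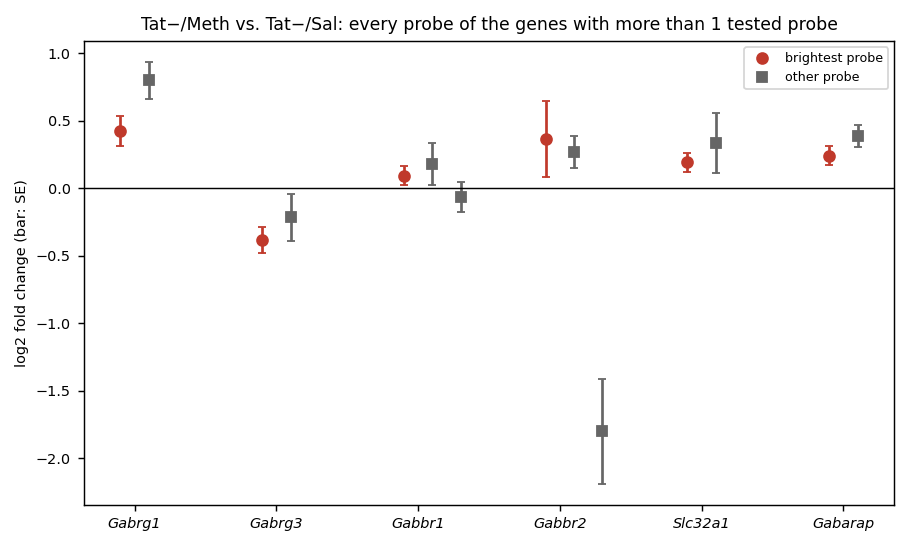
Log2 fold change (y axis, bars SE) of each tested probe, Meth without Tat, for the 6 GABA genes with more than 1 tested probe (x axis); circles are the brightest probe and squares the others. The probes of 4 genes share a sign, *Gabbr2* has probes at 0.37, 0.27 and −1.80, and the *Gabbr1* probes lie at 0.09, 0.18 and −0.07.

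The genes for making and packing GABA moved unequally. *Gad1*, which encodes the decarboxylase that makes most brain GABA, read 15.63, 15.59, 15.78, 15.69 and 15.64 in Tat−/Meth and 15.23, 15.46, 15.33, 15.38 and 15.42 in Tat−/Sal. The groups did not overlap, and *Gad1* was higher by 0.30 ± 0.07 (adjusted *p* = 0.0011), a sign that turned to −0.12 without scaling. *Gad1* fell by 0.40 for Tat under Meth (SE 0.07, adjusted *p* = 6.71e-05). *Gad2*, the second decarboxylase, held at nerve terminals, read within 14.88 to 15.14 on all 20 arrays and did not pass, with −0.11 ± 0.05 for Meth without Tat (adjusted *p* = 0.059). *Slc32a1*, the vesicular transporter, was higher by 0.19 ± 0.07 in Tat−/Meth (adjusted *p* = 0.027), with all 5 arrays (17.11 to 17.28) above all 5 of Tat−/Sal (16.87 to 17.09), but lower by −0.23 without scaling. Its adjusted *p* was 0.12 with the series matrix values and 0.20 after normexp, and its dimmer probe read 0.34 ± 0.22 (adjusted *p* = 0.21). The call was lost without array 1 (0.17) or 2 (0.19) of Tat−/Meth and without array 4 (0.17) or 5 (0.16) of Tat−/Sal. *Slc32a1* fell by 0.23 for Tat under Meth (SE 0.07, adjusted *p* = 0.0093), a sign that turned to 0.11 without scaling. *Abat*, the transaminase that breaks GABA down, had changes from −0.09 to 0.09 in the 6 contrasts and did not pass in any.

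The windows before *Gad1* (chr2:70561879-70562128) and *Slc32a1* (chr2:158610508-158610757), both on the + strand of GRCm38.p6 in RefSeq, are given for the pair of GABA synthesis and packing genes that were higher together, with capitals as above.
Gad1: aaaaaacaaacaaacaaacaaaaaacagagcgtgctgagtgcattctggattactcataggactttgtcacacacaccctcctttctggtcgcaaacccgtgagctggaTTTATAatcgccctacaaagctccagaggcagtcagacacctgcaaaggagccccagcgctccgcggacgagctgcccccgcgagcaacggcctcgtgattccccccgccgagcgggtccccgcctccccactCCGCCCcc
Slc32a1: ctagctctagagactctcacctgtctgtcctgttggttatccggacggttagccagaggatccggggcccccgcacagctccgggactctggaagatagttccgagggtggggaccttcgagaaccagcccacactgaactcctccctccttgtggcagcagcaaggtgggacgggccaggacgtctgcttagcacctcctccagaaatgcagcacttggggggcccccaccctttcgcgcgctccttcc
The *Gad1* window held 1 TATA box match and 1 GC box match, and the *Slc32a1* window held no match. Of the 27 members 25 had a RefSeq window, 31 windows in all, and 14 of these (45.2%) held the GC box, 4 (12.9%) the TATA box, 2 (6.45%) the CREB half-site and 0 the AP-1 site. The windows of *Gabra3* overlap and hold the same TATA box match, which is counted in each.

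The uptake transporters varied between mice of a group. *Slc6a11*, the GABA transporter of astrocytes, read 10.10, 9.22, 9.13, 9.34 and 8.95 in Tat−/Meth and 8.99, 9.02, 8.71, 9.24 and 8.77 in Tat+/Meth. It fell by 0.40 between them (SE 0.15, adjusted *p* = 0.034), but without array 1 of Tat−/Meth, the high one, the value was −0.21 (adjusted *p* = 0.083). The call was also lost without array 4 of Tat−/Meth (−0.40, adjusted *p* = 0.052), without array 3 (−0.34) or 5 (−0.36) of Tat+/Meth, and with only these 2 groups in the fit (adjusted *p* = 0.11). The 6 astrocyte markers were well above background in every group, and their mean level was 12.54 to 12.88 on the Tat−/Meth arrays and 12.20 to 12.40 on the 15 others. Of the 6, 3 rose for Meth without Tat (all genes 35%) and 4 fell for Tat under Meth (all genes 38.5%), and of 5 oligodendrocyte markers 2 rose and 3 fell. Their part in the *Slc6a11* and *Gabrg1* values was not tested. Of the 9 medium spiny neuron markers, 0 rose and 2 fell for Meth without Tat (all genes 35% and 15.3%). For Tat under Meth 2 of them rose and 2 fell (all genes 16% and 38.5%). *Slc6a13*, a GABA transporter of meninges and vessels, read between 8.20 and 9.72 over all arrays and did not pass, with −0.18 ± 0.23 for Meth without Tat and −0.46 ± 0.23 for Meth with Tat (adjusted *p* = 0.43). All 6 markers of meninges and vessels were measured in every group, and none of them passed for Meth without or with Tat.

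At the postsynapse, *Gphn* encodes gephyrin, the scaffold that anchors GABA-A and glycine receptors. It read 13.60, 13.21, 13.28, 13.30 and 13.23 in Tat−/Meth and 12.92, 12.89, 12.91, 12.94 and 12.97 in Tat−/Sal. Every Tat−/Meth array lay above every Tat−/Sal array, and *Gphn* was higher by 0.40 ± 0.07 in Tat−/Meth (adjusted *p* = 0.00022), a difference that was −0.02 without scaling. In Tat+/Meth (12.73 to 12.94) it fell by 0.47 against Tat−/Meth (SE 0.07, adjusted *p* = 3.72e-05). *Gabarap*, a ubiquitin-like protein that binds the gamma subunits and acts in receptor trafficking and autophagy, was higher by 0.24 ± 0.07 in Tat−/Meth (adjusted *p* = 0.0071), a sign that turned to −0.18 without scaling. Its second probe read 0.39 ± 0.08. In Tat+/Meth it fell by 0.34 against Tat−/Meth (SE 0.07, adjusted *p* = 0.000435). *Nlgn2*, the adhesion protein of inhibitory synapses, fell by 0.17 in Tat−/Meth (SE 0.06, adjusted *p* = 0.034) and rose by 0.23 ± 0.06 for Tat under Meth (adjusted *p* = 0.0055). Both *Nlgn2* calls were lost with quantile normalization (−0.05 and 0.07) and with median scaling (−0.04 and 0.07). The *Nlgn2* call for Meth without Tat was also lost without any 1 of arrays 2 to 5 of Tat−/Meth or arrays 3 to 5 of Tat−/Sal, with values of −0.17 to −0.14.

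**Figure D3:**
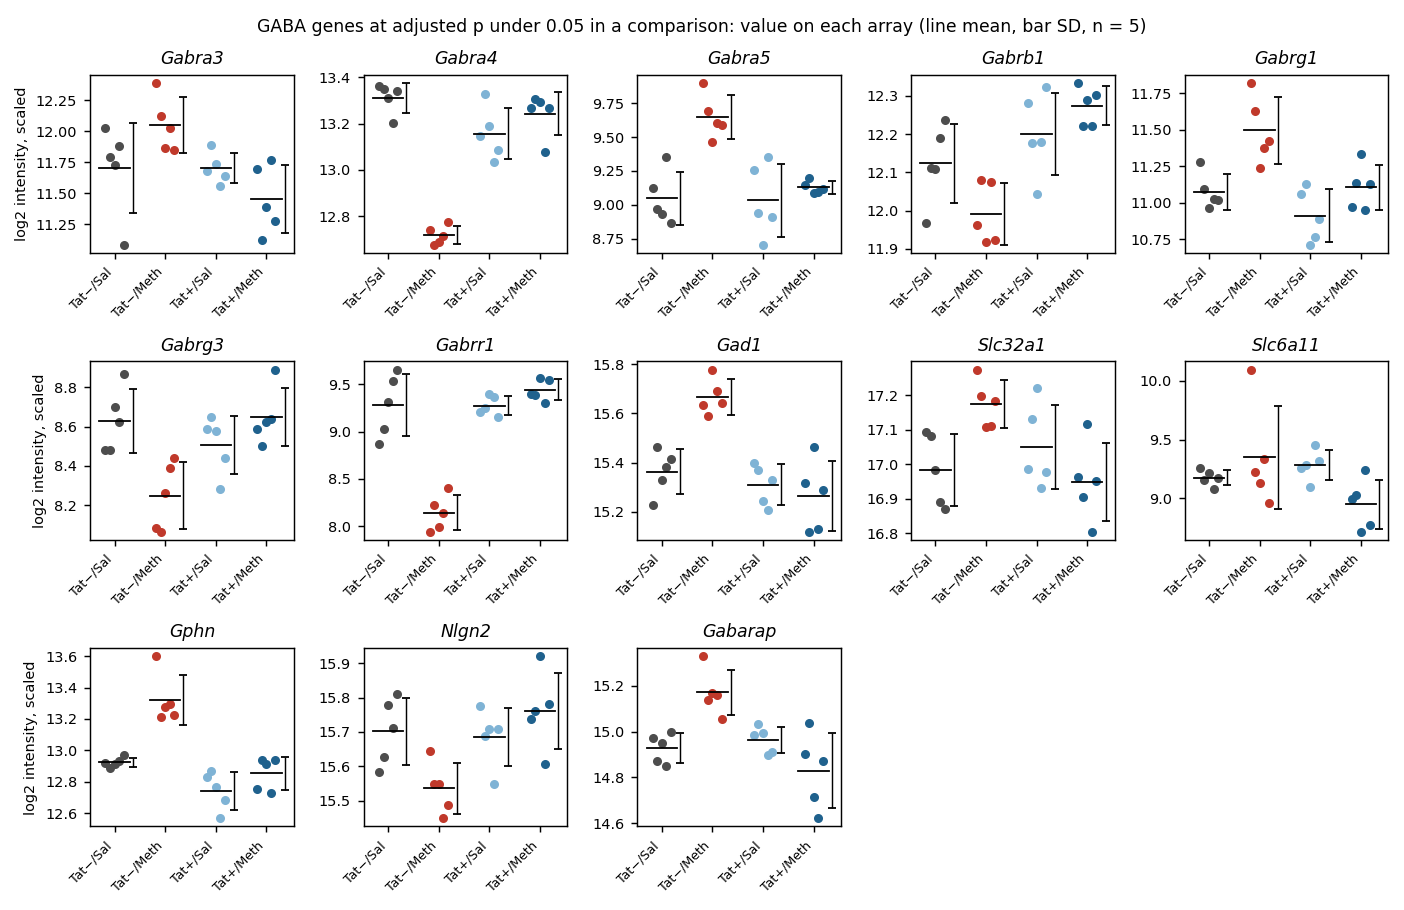
Scaled log2 intensity (y axis) on each of the 20 arrays for the 13 GABA genes that passed in a comparison; columns are the 4 groups, lines the mean and bars the SD (n = 5). Each panel has its own y range, which does not start at 0. The 5 Tat−/Meth points of *Gabra4* and *Gabrr1* lie below, and those of *Gphn*, *Gabra5*, *Gad1* and *Gabarap* above, all points of the other 3 groups.

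Counted over the 22 tested members, the Tat−/Meth arrays lay wholly above the Tat−/Sal arrays for 6 genes and wholly below for 3, against 24.7% and 11.5% of all genes tested. For Tat under Meth 4 members lay wholly above (background 11.2%) and 5 wholly below (background 26.8%).

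With Tat present, the effect of Meth on these genes was not detected. The changes for Meth with Tat ran from −0.46 to 0.35, and the smallest adjusted *p* was that of *Slc6a11*, at −0.33 ± 0.15 (adjusted *p* = 0.39, unadjusted 0.043), with 4 of 5 Tat+/Meth arrays below every Tat+/Sal array. It was the 1 member with an unadjusted *p* under 0.05, which 12.2% of all genes had. The 95% intervals in this comparison were −0.03 to 0.21 for *Gabra4*, −0.10 to 0.43 for *Gabrr1* and −0.19 to 0.09 for *Gad1*. No member passed with slide as a block or on the arrays of slide 3 alone.

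The interaction, the effect of Meth in Tat+ less that in Tat− mice, passed for 10 of 22 members (45.5%), against a background of 36.0% of all genes (12.4% higher, 23.6% lower), and exceeded 2-fold for *Gabrr1* (background 7.44%). It was positive for *Gabrr1* (1.31 ± 0.18, adjusted *p* = 1.75e-05), *Gabra4* (0.68 ± 0.08, adjusted *p* = 4.59e-06), *Gabrg3* (0.52 ± 0.14) and *Nlgn2* (0.24 ± 0.09). It was negative for *Gabra3* (−0.60 ± 0.22) and *Gabra5* (−0.51 ± 0.16), and also for *Gabarap* (−0.38 ± 0.10), *Gad1* (−0.35 ± 0.10), *Slc32a1* (−0.29 ± 0.10) and *Gphn* (−0.29 ± 0.10), although these 4 turned positive without scaling. After median scaling 1 member, *Gabrr1*, passed, and without scaling 10 passed, 10 higher and 0 lower. Of all 15121 genes tested there, 2564 passed after median scaling and 5953 without scaling, the latter 5907 higher and 46 lower. With single arrays left out the *Gabra3* call was lost in 12 of 20 fits (−0.62 to −0.45), that of *Gphn* in 10 (−0.29 to −0.22) and that of *Nlgn2* in 14 (0.20 to 0.25). The values on which *Gabrr1* rests are a fall of 1.14 in Tat− and 0.17 ± 0.12 in Tat+ mice. Every interaction uses the Tat−/Meth arrays, and so slide 1.

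Tat without repeated Meth gave smaller values. For Tat under saline the smallest adjusted *p* belonged to *Gabra4*, at −0.16 ± 0.06 (adjusted *p* = 0.14, unadjusted 0.014). *Gphn* was next, with −0.18 ± 0.07 (adjusted *p* = 0.18, unadjusted 0.025), and its Tat+/Sal arrays (12.57 to 12.87) all lay below its Tat−/Sal arrays (12.89 to 12.97). It was the 1 member without overlap, with backgrounds of 1.85% higher and 3.01% lower. These 2 members had an unadjusted *p* under 0.05, as did 20.5% of all genes. *Gabra4* and *Gphn* passed with slide as a random block and did not with slide as a fixed block. Under the random block 2326 of all 15102 genes passed for Tat under saline, against 214 without a block and 0 under the fixed block. Between Tat+/Meth and Tat−/Sal the smallest adjusted *p* was that of *Gabrb1*, at 0.15 ± 0.06 (adjusted *p* = 0.64, unadjusted 0.023). It was the 1 member with an unadjusted *p* under 0.05, which 7.79% of all genes had. No member passed there on the arrays of slide 2 alone, which held both groups.

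**Figure D4:**
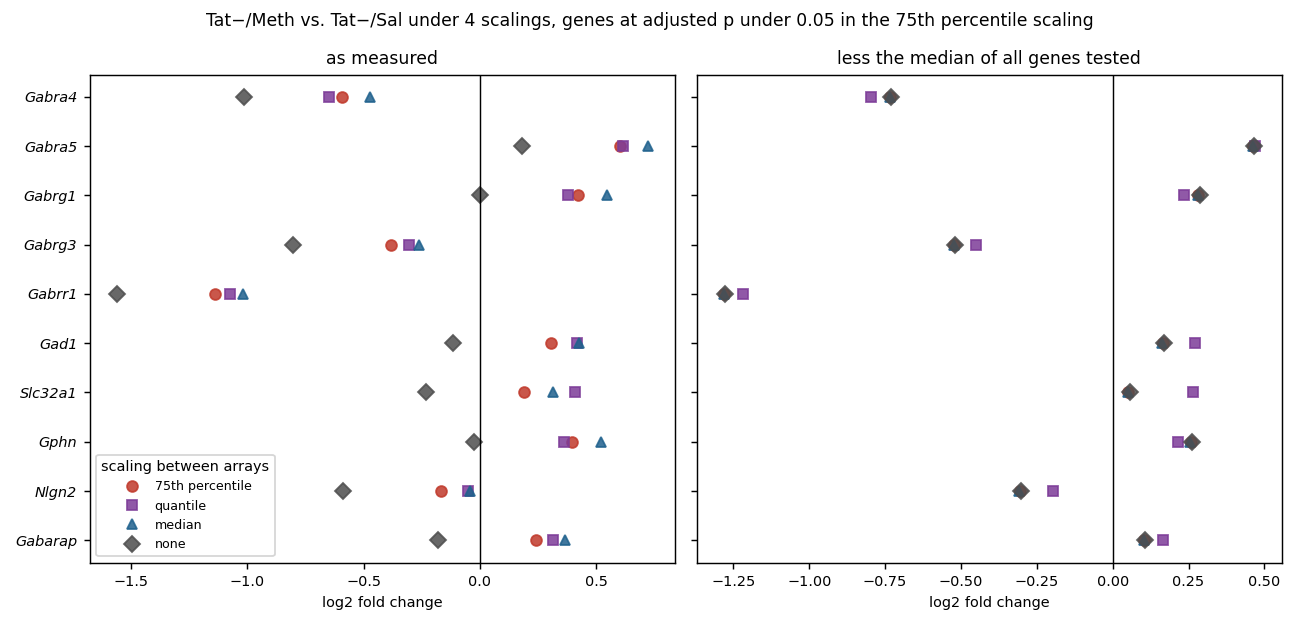
Log2 fold change (x axis) for Meth without Tat of the 10 GABA genes that passed (y axis) under 4 scalings between arrays, as measured (left) and less the median of all genes tested (right). On the left *Gphn*, *Gad1*, *Slc32a1* and *Gabarap* change sign without scaling; on the right 3 of the scalings nearly coincide by construction, and quantile normalization leaves every gene on its side of 0.

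Relative to the median of all genes, for Meth without Tat, *Gabrr1* lay between −1.28 and −1.05 and *Gabra4* between −0.80 and −0.68 under the 6 scalings and background corrections. *Gabrg3* lay between −0.52 and −0.45 and *Nlgn2* between −0.43 and −0.20. On the other side *Gabra5* lay between 0.33 and 0.47, *Gabrg1* between 0.19 and 0.29, *Gphn* between 0.16 and 0.26, *Gad1* between 0.12 and 0.27 and *Gabarap* between 0.04 and 0.17. *Slc32a1* ran from −0.09 to 0.26.

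GABA-A subunit genes lie in clusters, and both signs occurred within them. By the order of protein-coding genes in RefSeq, 6 pairs of members are immediate neighbours, and both genes of 4 pairs were tested. For Meth without Tat the values were 0.42 and 0.41 for *Gabrg1* and *Gabra2*, −0.59 and −0.13 for *Gabra4* and *Gabrb1*, −0.08 and −1.14 for *Gabrr2* and *Gabrr1*, and −0.38 and 0.60 for *Gabrg3* and *Gabra5*. In 3 of the 4 pairs both values had the same sign, but 1 gene of each did not pass. These were *Gabra2* (adjusted *p* = 0.21), *Gabrb1* (0.077) and *Gabrr2* (0.49), so their signs are not established. In 1 pair, *Gabrg3* and *Gabra5*, both genes passed, in opposite directions.

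Other genes of the pathway followed the array at large. Of 30 such genes (receptor trafficking, GABA-B auxiliary subunits and channels, glutamine and GABA metabolism), 28 were tested. For Meth without Tat 11 rose and 2 fell, where 35% of all genes rose and 15.3% fell, with a median of 0.17 against 0.14 for all genes. The 4 largest changes were those of *Dbi*, the diazepam binding inhibitor (−0.64 ± 0.09), *Slc12a2*, a chloride importer (0.46 ± 0.09), *Tspo*, the mitochondrial translocator protein (0.40 ± 0.07), and *Kctd8*, a GABA-B auxiliary subunit (0.39 ± 0.11). For Tat under Meth 2 rose and 14 fell (all genes 16% and 38.5%), led by *Dbi* (0.87 ± 0.09), *Slc12a2* (−0.69 ± 0.09), *Plcl1* (−0.68 ± 0.22) and *Kctd16* (−0.54 ± 0.18). None passed in the 3 other comparisons of groups, and the interaction passed for 2 above and 9 below 0 (all genes 12.4% and 23.6%).

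The remaining members were dim. *Gabra6*, the subunit of cerebellar granule cells, *Gabre* and *Gabrq* were well above background on 0 of 20 arrays. Of 7 cerebellar markers, 4 were well above background on at least 3 arrays in each group (5 in Tat+/Meth), while *Cbln3* and *Neurod1* were on no array. *Gabrp* was well above background on 1 of 5 arrays of Tat−/Meth, 2 of Tat−/Sal, 1 of Tat+/Meth and 0 of Tat+/Sal, and its 1 such array in Tat−/Meth, array 5, read 7.08 where the 4 others read 2.96 to 3.83. The 22 tested members were well above background on 5 of 5 arrays in each group, and no member spot was saturated.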

How the data were processed

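Whole-tissue RNA of 20 mice was hybridised to 1-colour Agilent arrays. The authors deposited spot intensity values, comprising raw, background and processed signals of each spot (the latter less background) from Agilent's extraction software per the file headers, with outlier, saturation and well-above-background flags. Groups were taken from the sample titles. The labels name the dye as Cy3, whereas the methods name Cy5.

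Outlier spots were left out (4278 over all arrays), the log2 processed signals of a probe's other spots were averaged, and each array was shifted so that its 75th percentile equalled the mean of that percentile over arrays. Probes were named through their RefSeq accession. The 27 members had 37 probes (19 genes had 1, 6 had 2 and 2 had 3), and a gene was represented by its probe of highest mean. Testing required a mean of 6 log2 units in at least 1 group and values on at least 3 arrays per group. All 4 groups entered 1 limma fit, with *p*-values adjusted over all 15102 genes. The members and gene lists were chosen with earlier results of these data known. All 27 members are named; of the other pathway genes, up to 4 per comparison are, those with the largest change among those that passed. The number of arrays limits the precision, and *p*-values set a difference between groups against the spread between mice within groups. For Tat−/Meth that spread lies within slide 1 and does not hold a difference between slides. Intervals are 95%.

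The series matrix values, also deposited by the authors, matched the background-subtracted signal plus a constant per array for 99.8 to 100% of single-spot probes (within 1% or 0.1) and served as an alternative, with values under 1 set to 1 (7831). Further settings tried were median scaling, quantile normalization, unscaled values, normexp (offset 50), other signal filters, the mean over probes, second probes, kept outlier spots, slide as a fixed or random block, single slides, only the 2 groups compared, a variance trend, the methods' t-test, other thresholds, the replicate number as a blocking factor, and leaving arrays out singly. Changes less the median of all genes were added after seeing the data. The fit was tested on simulated data.

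Fits were run in limma 3.58.1 (R 4.3.3), and tables and plots in Python with numpy, pandas and matplotlib. Promoter windows are 250 bases from RefSeq (GRCm38.p6); the array annotation names another build, so gene coordinates are not printed.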

Additional observations from a re-analysis of the deposited data

Results flagged for a closer look

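In 10 members the effect of Meth differed between Tat+ and Tat− mice by the interaction in limma (effect in Tat+ less that in Tat−, log2). The differences were 0.68 for *Gabra4* (adjusted *p* = 4.59e-06), 1.31 for *Gabrr1* (1.75e-05), −0.38 for *Gabarap* (0.0057), 0.52 for *Gabrg3* (0.0063), −0.35 for *Gad1* (0.0077), −0.51 for *Gabra5* (0.020), −0.29 for *Slc32a1* (0.025), −0.29 for *Gphn* (0.038), 0.24 for *Nlgn2* (0.041) and −0.60 for *Gabra3* (0.042), all as adjusted *p*. Each of them uses the Tat−/Meth arrays, and Tat−/Meth and slide 1 cannot be told apart.

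In 4 of 88 combinations of a tested member and a group, 1 array stood apart from the other 4 by Dixon's ratio of its gap to the range of the group, where chance gives about 1 in 20. *Gabra4* in array 4 of Tat+/Meth was low at 13.08, with 13.27 next (ratio 0.85). *Gphn* in array 1 of Tat−/Meth was high at 13.60, with 13.30 next (0.78). *Abat* in array 5 of Tat+/Meth was high at 16.51, with 16.24 next (0.74). *Gabbr2* in array 3 of Tat+/Meth was high at 9.05, with 8.49 next (0.71).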

How the results depend on the processing

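For Meth without Tat (Tat−/Meth vs. Tat−/Sal) the 10 members that passed became 5 with median scaling, all 5 among the 10 (*Gabra4*, *Gabra5*, *Gabrg1*, *Gabrr1* and *Gphn*), 1 above 2-fold and 0 at an adjusted *p* under 0.01 and 3-fold, and 8 to 12 with 1 array left out. For Tat under Meth (Tat+/Meth vs. Tat−/Meth) the 13 became 7 with median scaling (*Gabra3*, *Gabra5*, *Gabrg1*, *Gabrr1*, *Gad1*, *Gphn* and *Gabarap*), 1 above 2-fold, 0 at the stricter limits and 12 to 13 with 1 array left out. The 10 of the interaction became 1 with median scaling, 1 above 2-fold, 0 at the stricter limits and 7 to 10 with 1 array left out. Where none passed, 0 passed with any 1 array left out. The methods' t-test without adjustment gave 2 for Meth with Tat (1656 of all 15102 genes) and 2 for Tat under saline (2828 genes). It gave 1 between Tat+/Meth and Tat−/Sal (1388 genes). Slide as a random block gave 2 for Tat under saline (2326 genes). The cause of these changes was not tested. Whether replicate numbers pair the mice could not be settled. Same-number correlations of deviations ran from −0.04 to 0.09 for Meth without Tat, where other numbers gave −0.15 to 0.18. For Meth with Tat they ran from 0.03 to 0.36, with 3 pairs above 0.1, where other numbers gave −0.23 to 0.18. No comparison had every pair above 0.1. For Meth without and with Tat, 4 and 5 of the 10 mice correlated best with their own number. With the replicate block 12 members passed for Meth without Tat, the 10 and also *Gabra3* and *Gad2*, 13 for Tat under Meth, 10 for the interaction and 0 elsewhere. Of all 15102 genes, 7940, 8497 and 5793 passed in these, in that order, and 553 for Tat under saline.

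Without scaling, signs turned for *Gabarap* (−0.18 for Meth without Tat and 0.11 in the interaction), *Gad1* (−0.12 and 0.14), *Gphn* (−0.023 and 0.20) and *Slc32a1* (−0.23 and 0.19, and 0.11 for Tat under Meth). The 75th percentiles lay between 9.64 and 9.79 on slide 1, against 9.75 to 10.33 on slides 2 and 3. Less the median of all genes, *Slc32a1* turned after normexp (−0.092, then 0.057 for Tat under Meth and 0.014 in the interaction). The 3 *Gabrr1* changes passed under every alternative that could be run, and the *Gabra4* change for Meth without Tat did too. Neither gene had a second tested probe, so that check could not be run for them. For Meth without Tat 0 members, *Gabrr1* included, exceeded 2-fold after normexp or with the series matrix values. After normexp 0 did so for Tat under Meth or in the interaction either. Slide as a fixed block cannot be fitted to comparisons with Tat−/Meth.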
